A study of Mus musculus with 10 samples.

Results

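The genes described here encode 10 constitutive proteins of the centromere, the chromosomal site on which kinetochores are built. They are Cenpa, Cenph, Cenpi, Cenpk, Cenpl, Cenpm, Cenpn, Cenpp, Cenpq and Cenpu, 10 of 18193 genes with a probe set of their own on the arrays. The list was selected on these arrays, in part because the Cenpa signal was lower after Adriamycin in all 5 lymphomas, so every value of that comparison is a description without a test. Each gene was read from its probe set with the highest mean signal, and all 10 lay above the median signal of the table, 4.43, on at least 5 arrays, as did 11472 genes in all.

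Total RNA was hybridised to Affymetrix arrays for 5 ADR samples and 5 untreated samples. ADR cells were exposed in culture to Adriamycin (doxorubicin, an intercalating topoisomerase poison) at 0.05 µg/ml for 5 days, and untreated cells of the same lymphoma were the comparison. The labels used here give no day for the untreated cells, so a match in culture time cannot be read from them. All cells came from lymph node lymphomas of Emu-myc;Suv39h1-/- mice, whose c-Myc transgene is active in the B-cell lineage and which lack the histone methyltransferase Suv39h1. All carried retroviral Bcl2, which blocks apoptosis, had been selected with puromycin and grew on gamma-irradiated NIH 3T3 fibroblasts. No lymphoma with intact Suv39h1 was analysed here, and the age of the mice is not given in the sources used here. Each condition of a lymphoma is a single array. The spread given is therefore that between lymphomas, and it cannot be told apart from differences between cultures or arrays.

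In the vertebrate centromere the histone H3 variant CENP-A replaces H3 in part of the nucleosomes and so marks where the kinetochore forms. A group of proteins, the constitutive centromere-associated network, sits on these nucleosomes through the whole cell cycle. CENP-N, with its partner CENP-L, binds CENP-A, and CENP-H, CENP-I, CENP-K and CENP-M form another module. CENP-P, CENP-Q and CENP-U belong to yet another together with CENP-O and CENP-R. In mitosis the network carries the outer kinetochore, which binds microtubules. In human and mouse cells CENP-A is loaded after mitosis, and many of these genes are transcribed mostly in dividing cells.

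Signals of all 10 genes were lower with ADR in 4 of 5 lymphomas, all but lymphoma_4936. In that lymphoma they were higher with ADR for 9 genes and lower for Cenpa alone. Averaged over the 5 lymphomas the change ranged from -0.80 (Cenpa) to -0.30 (Cenpq) on the log2 scale, with a median of -0.48, against -0.02 over all genes tested. In a bulk sample fewer dividing cells and less RNA per cell cannot be told apart.

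The arrays of lymphoma_4936 stood apart for these genes. Untreated cells of that lymphoma had the lowest of the 5 untreated signals for Cenph, Cenpi, Cenpk, Cenpl, Cenpm, Cenpn, Cenpp and Cenpu, and the next to lowest for Cenpq, whereas their Cenpa signal was the highest. The ADR array of lymphoma_1032 had a median signal of 4.15 over all probe sets, against 4.43 to 4.46 on the other ADR arrays and 4.44 to 4.50 on the untreated arrays. Mean changes of the 10 genes and median changes of gene lists are therefore given with and without lymphoma_4936, and changes of single genes outside the 10 over all 5 lymphomas.

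The starts of the genes are shown because all 10 genes had the same direction in 4 lymphomas, and 9 of them in lymphoma_4936, and because motifs of cell cycle promoters were searched there. RefSeq promoters of GRCm38.p6, covering 250 bases before and 50 bases after an annotated start, were found for 10 of 10 genes, with 3 starts for Cenpk and 12 promoters in all. From base -175 to base 30, the sequences are those of the 4 genes that held both a CCAAT box, the motif of the factor NF-Y, and a CHR motif, the cell cycle genes homology region. Capitals mark matches on either strand to CCAAT, to the CHR letters TTTGAA or TTCGAA, and to the E2F letters TTCCCGC or TTGGCGC.
Cenpa (chr5:30666711-30666915, plus strand): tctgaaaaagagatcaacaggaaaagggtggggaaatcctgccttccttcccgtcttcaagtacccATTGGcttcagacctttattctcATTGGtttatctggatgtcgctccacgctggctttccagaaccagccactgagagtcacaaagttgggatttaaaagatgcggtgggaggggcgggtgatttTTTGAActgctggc
Cenpl (chr1:161070592-161070796, plus strand): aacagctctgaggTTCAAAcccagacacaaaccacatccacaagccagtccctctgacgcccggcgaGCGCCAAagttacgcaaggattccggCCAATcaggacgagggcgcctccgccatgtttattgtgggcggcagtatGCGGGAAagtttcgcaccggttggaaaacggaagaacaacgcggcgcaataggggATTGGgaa
Cenpm (chr15:82244307-82244511, minus strand): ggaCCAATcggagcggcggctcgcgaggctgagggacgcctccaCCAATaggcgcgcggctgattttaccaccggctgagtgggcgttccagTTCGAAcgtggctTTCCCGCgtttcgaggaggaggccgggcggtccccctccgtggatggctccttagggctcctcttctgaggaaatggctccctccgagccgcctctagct
Cenpn (chr8:116921565-116921769, plus strand): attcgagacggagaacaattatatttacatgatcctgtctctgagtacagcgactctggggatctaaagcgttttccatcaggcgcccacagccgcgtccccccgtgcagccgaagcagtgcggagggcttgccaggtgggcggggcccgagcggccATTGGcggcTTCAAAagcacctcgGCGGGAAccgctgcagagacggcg
The Cenpa promoter had reverse CCAAT boxes starting at bases -109 and -86 and a CHR match at bases 17 to 22, and neither E2F motif. In Cenpn a reverse CCAAT box at base -18 was followed by a reverse CHR match at base -9 and a reverse E2F match at base 7. Cenpm had the rarer CHR letters TTCGAA, which read the same on both strands, at base -83 and an E2F match at base -70. Cenpl held its CHR match furthest out, at base -162.

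Over all 10 genes, a CCAAT box was found in 9, all but Cenpp, counting any of the starts of Cenpk. CCAAT was present in 37.4% of 32851 RefSeq promoters of the same length and in 38.2% of the 21263 promoters of protein-coding genes. The CHR letters TTTGAA were in 3 genes (Cenpa, Cenpl and Cenpn), against 17.9% of all promoters, and TTCGAA was in Cenpm alone, against 1.56%. The E2F letters TTCCCGC were in 5 genes (Cenph, Cenpk, Cenpl, Cenpm and Cenpn), against 4.6% of all promoters and 5.95% of coding promoters, and TTGGCGC was in Cenpl, against 2.45% of all promoters. In Cenpk the TTCCCGC match was at the most downstream start alone. Counted by promoter, as the shares are, CCAAT was in 11 of 12 and TTCCCGC in 5 of 12. No match overlapped another. Both a CCAAT box and a CHR match of either spelling were in 4 of 10 genes, against 7.52% of all promoters and 7.11% of coding promoters. These counts describe letters in a window and say nothing of binding.

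**Figure D1:**
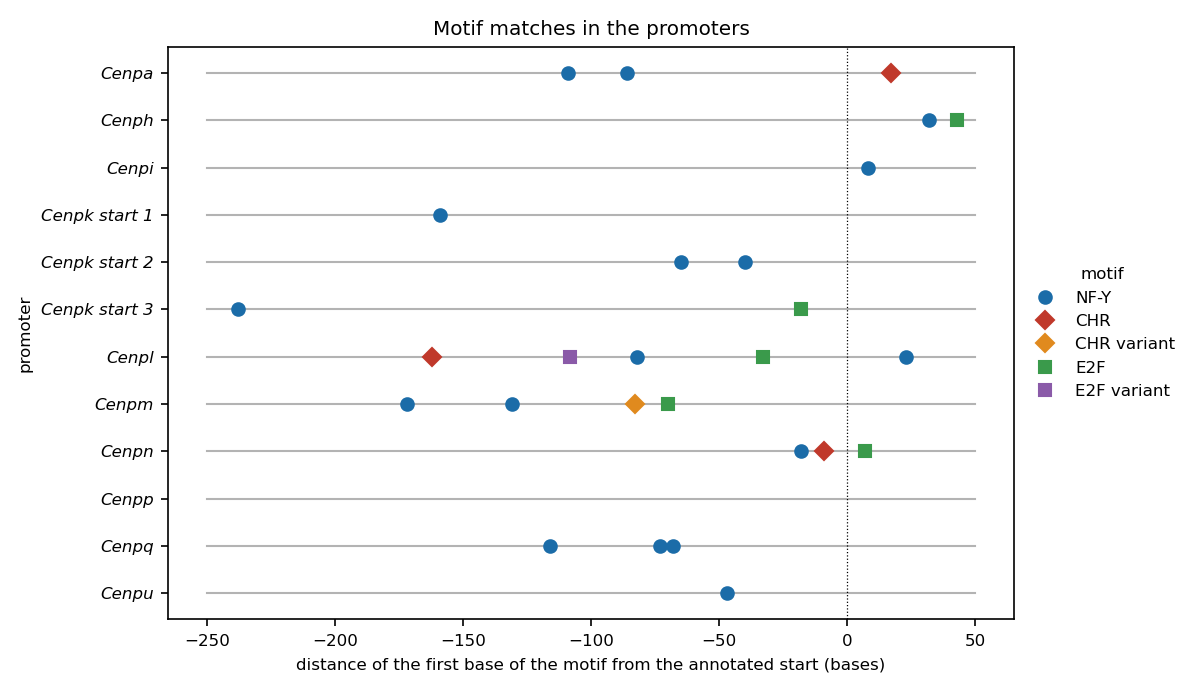
Positions of motif matches in the 12 RefSeq promoters of the 10 genes. The x axis is the distance in bases of the first base of each match from the annotated start (dotted line), each grey line is a promoter window of 300 bases, and marker shape and colour give the motif; Cenpp has none, and Cenpa, Cenpl, Cenpm and Cenpn carry both a CCAAT box (NF-Y) and a CHR match.

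Values over lymphomas below are in the order lymphoma_5783, lymphoma_7890, lymphoma_9250, lymphoma_1032 and lymphoma_4936, signals are log2 array signals, and changes are ADR minus untreated on the log2 scale, with SD over 5 lymphomas. Cenpa, the histone variant itself, had signals of 8.70, 9.14, 8.36, 9.03 and 10.33 in ADR cells, against 9.86, 9.59, 9.60, 9.73 and 10.76 in untreated cells. In 4 lymphomas the ADR signal lay below the lowest untreated signal, and the groups overlapped only through the ADR array of lymphoma_4936. Its change was -0.80 ± 0.38 (n = 5), a ratio of ADR over untreated of 0.576, and -0.89 ± 0.38 (n = 4) without lymphoma_4936. The change was of most size in lymphoma_9250 (-1.23) and lymphoma_5783 (-1.16) and of least size in lymphoma_4936 (-0.43) and lymphoma_7890 (-0.45). Among the tested genes 4.82% were lower and 4.67% higher in all 5 lymphomas, and Cenpa was the 1 gene of the 10 that was, which the choice of the list had used.

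The level of Cenpa also set lymphoma_4936 apart from the others in both conditions. It exceeded the next lymphoma by 1.19 in ADR cells and by 0.90 in untreated cells, while the untreated signals of lymphoma_7890 and lymphoma_9250 differed by 0.0052. With a single array per lymphoma and condition, such gaps have no replicate check. A further Cenpa probe set above the filter was lower with ADR in all 5 lymphomas too, by -0.84, -0.34, -0.63, -3.31 and -0.70, and also had its highest signals in lymphoma_4936. Its large change in lymphoma_1032 came from an ADR signal of 2.71, under the filter, against an untreated signal of 6.02.

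**Figure D2:**
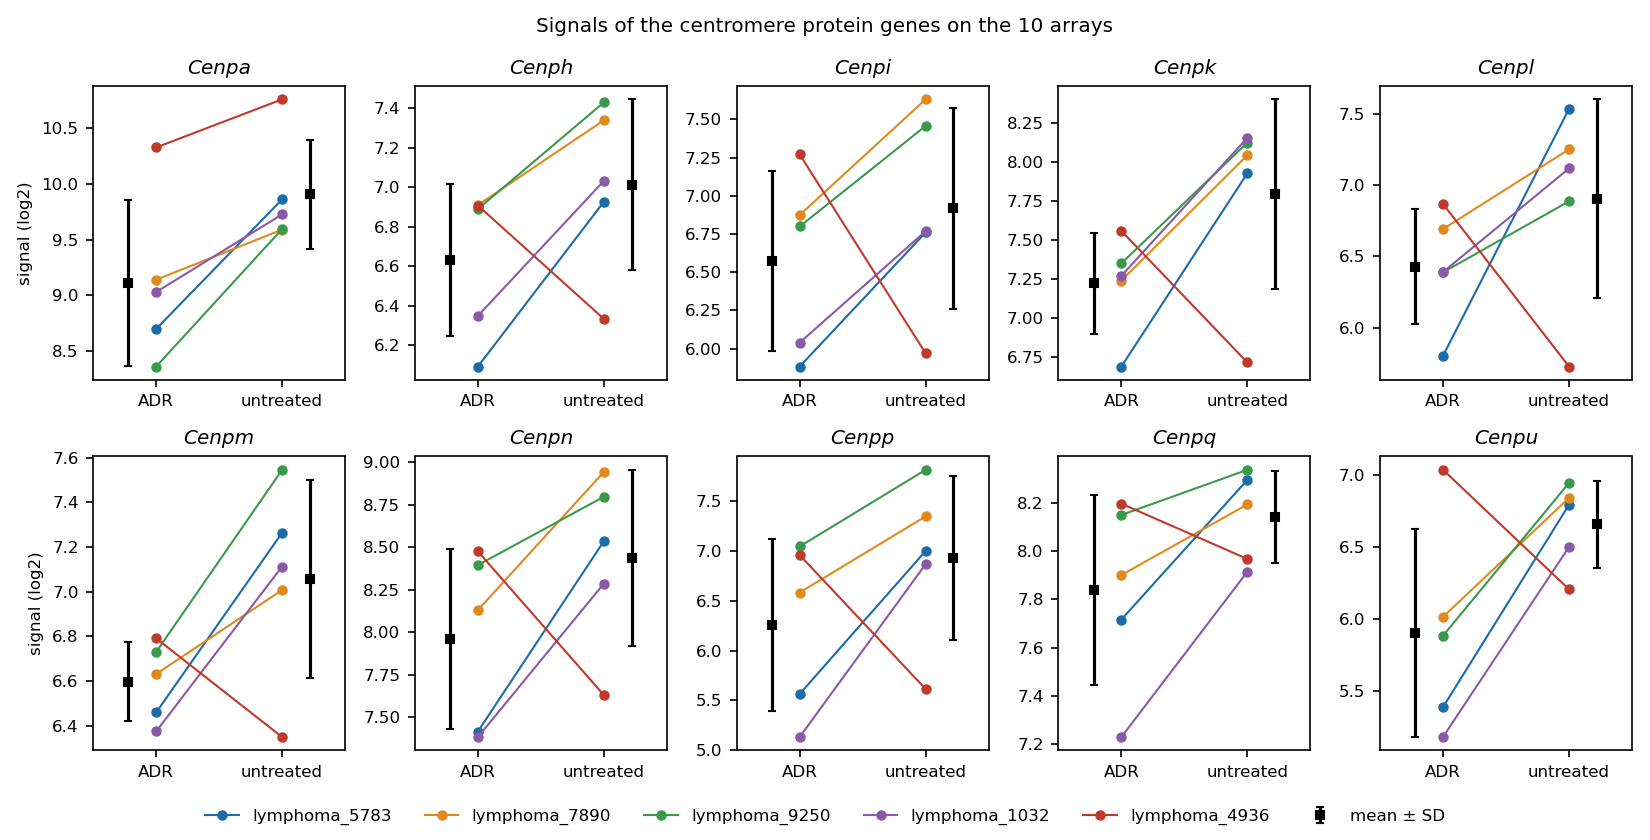
Signals (log2, y axis, scaled separately for each gene) of the 10 genes in ADR and untreated cells. Each line joins the arrays of a lymphoma, and black squares with bars are means ± SD over 5 lymphomas; the red line of lymphoma_4936 slopes against the others in 9 panels, and for Cenpa it runs above them in both conditions.

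Cenpn and Cenpl encode CENP-N, which binds the CENP-A nucleosome, and its partner CENP-L. Cenpn had signals of 7.42, 8.13, 8.40, 7.38 and 8.48 in ADR cells, against 8.54, 8.94, 8.80, 8.29 and 7.63 in untreated cells. The change was -0.48 ± 0.78, and -0.81 ± 0.30 without lymphoma_4936, where the sign was opposite, and -0.32 without lymphoma_5783. Cenpl had signals of 5.80, 6.69, 6.39, 6.39 and 6.87 in ADR cells, against 7.54, 7.25, 6.89, 7.12 and 5.73 in untreated cells. Its change of -1.73 in lymphoma_5783 was of more size than in the other 3 lymphomas where it was lower, and without lymphoma_4936 the groups did not overlap. The mean change of Cenpl was -0.48 ± 1.03 with all lymphomas and -0.88 ± 0.58 without lymphoma_4936, and -0.16 without lymphoma_5783. Its spread exceeded its mean in the full set.

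Changes of the genes for the module of CENP-H, CENP-I, CENP-K and CENP-M were the most even across the 4 lymphomas in which they were lower, with SDs of 0.09 to 0.21 there, against 0.23 to 0.58 for the other 6 genes. Over all 5 lymphomas their SDs were 0.53 to 0.92, and the smallest of the 10 genes were those of Cenpq (0.36) and Cenpa (0.38). Cenpk had signals of 6.69, 7.24, 7.35, 7.27 and 7.56 in ADR cells, against 7.93, 8.05, 8.13, 8.16 and 6.72 in untreated cells. In untreated cells its level spanned 0.23 in those 4 lymphomas and was 1.21 lower in lymphoma_4936 than in the nearest of them. Cenpi had signals of 5.88, 6.87, 6.80, 6.04 and 7.27 in ADR cells, against 6.76, 7.63, 7.46, 6.77 and 5.97 in untreated cells. Changes of Cenpi were -0.88, -0.76, -0.66 and -0.73 in the lymphomas where it was lower, an SD of 0.09, against 1.30 in lymphoma_4936. Cenph had signals of 6.09, 6.91, 6.89, 6.35 and 6.91 in ADR cells, against 6.93, 7.34, 7.43, 7.03 and 6.33 in untreated cells, and Cenpm had signals of 6.46, 6.63, 6.73, 6.37 and 6.79 in ADR cells, against 7.26, 7.01, 7.55, 7.11 and 6.35 in untreated cells. Levels of Cenpm in ADR cells spanned 0.42, the narrowest range of the 10 genes in that group, and 1.20 in untreated cells. The mean changes were -0.57 ± 0.81 for Cenpk, -0.34 ± 0.92 for Cenpi, -0.38 ± 0.56 for Cenph and -0.46 ± 0.53 for Cenpm, and without lymphoma_4936 they were -0.92 ± 0.21, -0.76 ± 0.09, -0.62 ± 0.18 and -0.68 ± 0.21. Without lymphoma_5783 that of Cenpi was -0.21.

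The module of CENP-P, CENP-Q and CENP-U held both the smallest and some of the largest changes. Cenpu, whose protein is a docking site for the mitotic kinase Plk1 in human cells, had signals of 5.39, 6.01, 5.88, 5.18 and 7.03 in ADR cells, against 6.79, 6.84, 6.94, 6.50 and 6.20 in untreated cells. In 4 lymphomas its ADR signals lay below all 5 untreated signals, and the ADR signal of lymphoma_4936 lay above all of them. Cenpp had signals of 5.56, 6.58, 7.04, 5.13 and 6.96 in ADR cells, against 7.00, 7.34, 7.81, 6.86 and 5.62 in untreated cells, the widest untreated range of the 10 genes (2.19). Cenpq had signals of 7.72, 7.90, 8.15, 7.23 and 8.20 in ADR cells, against 8.30, 8.19, 8.34, 7.92 and 7.97 in untreated cells, the narrowest untreated range (0.42). Changes were -0.76 ± 0.92 for Cenpu, -0.67 ± 1.20 for Cenpp and -0.30 ± 0.36 for Cenpq, and without lymphoma_4936 they were -1.15 ± 0.26, -1.17 ± 0.49 and -0.44 ± 0.23. Without lymphoma_1032 the change of Cenpp was -0.41. Without lymphoma_4936 the Cenpp and Cenpu ratios of ADR over untreated were 0.443 and 0.449, and that of Cenpq was 0.739.

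**Figure D3:**
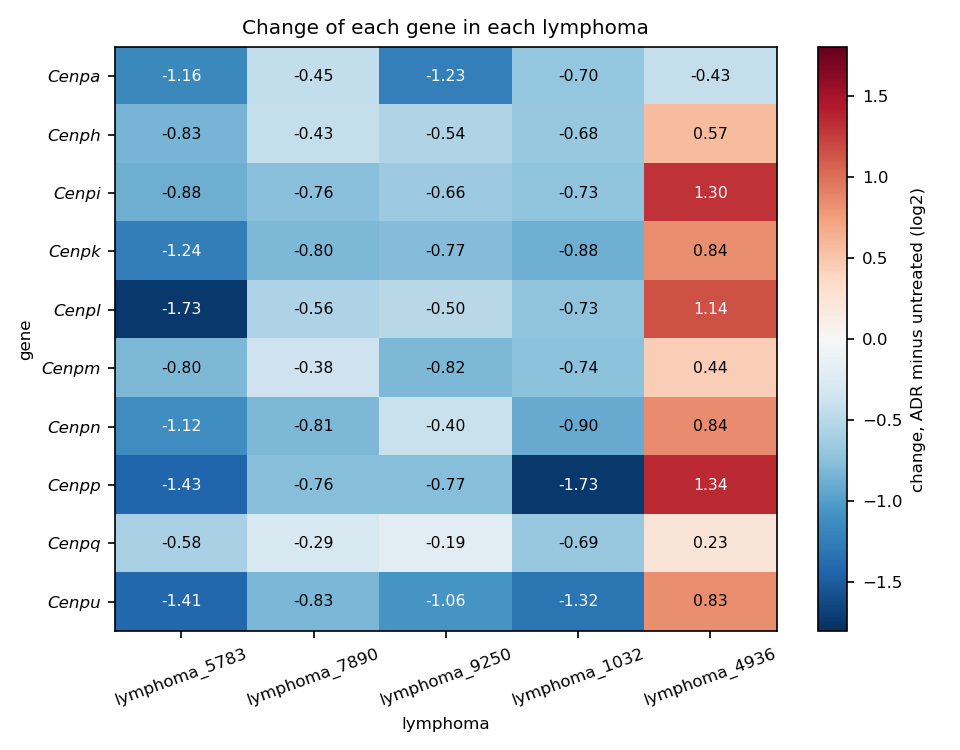
Change of each gene (rows) in each lymphoma (columns), as ADR minus untreated on the log2 scale, printed in each cell and coloured blue where negative and red where positive. Of 50 cells 41 are negative, and the 9 positive ones are all in the column of lymphoma_4936.

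All 10 genes were lower with ADR on average, as were 55.2% of all genes tested, and 9 of 10 were lower in 4 lymphomas and higher in lymphoma_4936, a pattern of 9.87% of all genes tested. Without lymphoma_4936 the 4 ADR signals lay below the 4 untreated signals for 6 of 10 genes (Cenpa, Cenph, Cenpk, Cenpl, Cenpm and Cenpu), against 2.97% of all genes tested; with all 5 lymphomas this held for 0 of 10 genes, against 0.27%. These counts rest on the comparison that was in view when the genes were listed. Setting lymphoma_4936 aside was also decided from the values of these same genes, so the counts are descriptions only. Medians of the 10 changes were -1.14, -0.66, -0.71, -0.73 and 0.84 in the order of lymphomas above. Over all genes tested the corresponding medians were 0.04, -0.01, -0.02, -0.17 and 0.06. The median change of the 10 genes was -0.48 with all lymphomas and -0.84 without lymphoma_4936.

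**Figure D4:**
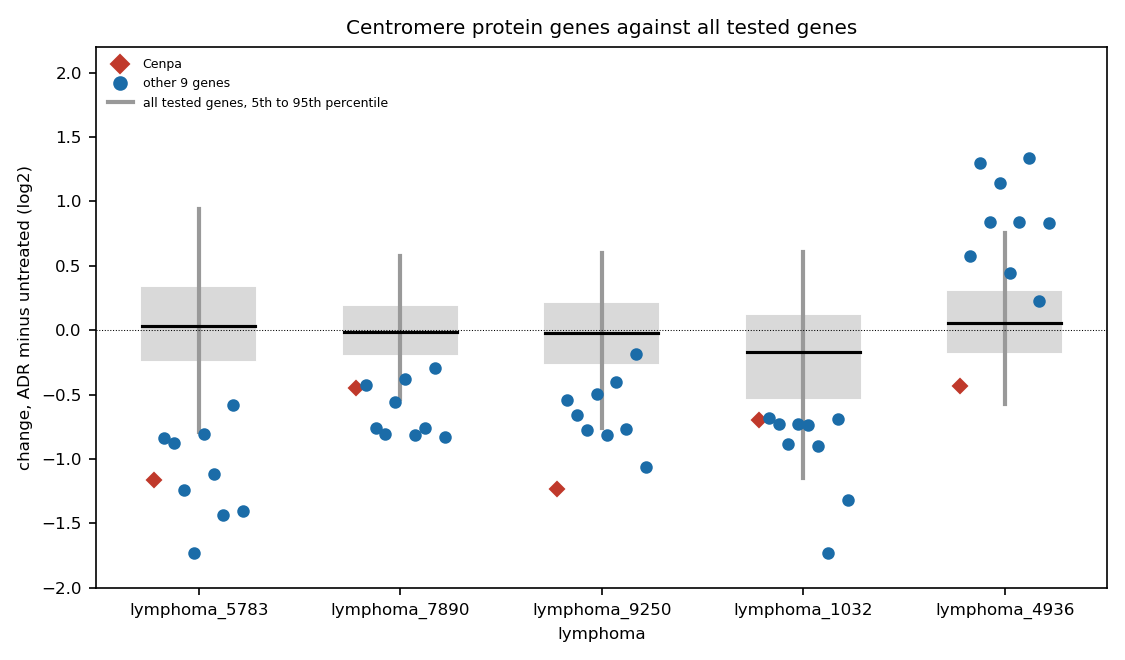
Changes (ADR minus untreated, log2, y axis) of Cenpa (red diamonds) and the other 9 genes (blue circles) in each lymphoma, over the distribution of all 11472 genes tested (black line, median; box, 25th to 75th percentile; grey line, 5th to 95th percentile). The circles lie below 0 in 4 lymphomas and above 0 in lymphoma_4936, where the diamond lies at -0.43.

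The probe sets of a gene gave the same direction where their signals were above the filter. The 10 genes had 18 probe sets, 5 genes had more than 1, and of the 8 further probe sets 4 were above the filter. All 4, for Cenpa, Cenpn, Cenpp and Cenpu, had the sign of the probe set used in each of 5 lymphomas. For Cenpn the further probe set changed by -1.82, -1.10, -0.74, -1.65 and 1.04, and for Cenpp by -1.14, -0.41, -1.31, -1.44 and 1.42. The Cenpu one changed less than the probe set used, by -0.36, -0.48, -0.69, -0.45 and 0.85. These probe sets were read on the same arrays and add no samples.

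The median spread between lymphomas was wider for these genes than for all genes tested in both conditions. The median SD over the 10 genes was 0.47 in ADR cells and 0.50 in untreated cells, and over all genes tested it was 0.36 in ADR cells and 0.35 in untreated cells. The outer kinetochore list had 0.48 in both, and the corona and checkpoint lists each had 0.45 in ADR and 0.48 in untreated cells. Below the median of all genes were Cenpm (0.18) and Cenpk (0.32) in ADR cells, and Cenpq (0.19) and Cenpu (0.30) in untreated cells. In untreated cells the lowest array was that of lymphoma_4936 for 8 genes, that of lymphoma_1032 for Cenpq and that of lymphoma_7890 for Cenpa. In ADR cells the highest array was that of lymphoma_4936 for 8 genes, and for Cenph and Cenpp it was within 0.09 of the highest.

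Other genes of the centromere and kinetochore were compared in the fit over all genes, in which limma called 0 of 11472 genes (0%) at an adjusted p below 0.05, with 518 lower (4.52%) and 455 higher (3.97%) at an unadjusted p below 0.05. Of 8 further inner centromere genes 7 were lower on average, with a median change of -0.23, and 0 passed the test. Beside the counts of this list and of those below, 55.2% of all genes tested were lower on average. This median was -0.35 without lymphoma_4936 and -0.08 without lymphoma_1032. Cenpc1, which encodes the CENP-A binding scaffold CENP-C, was lower in all 5 lymphomas, with a change of -0.26 ± 0.12 (adjusted p = 0.577 in limma, n = 5). Its signal was 7.97 ± 0.24 in ADR cells and 8.23 ± 0.29 in untreated cells. Cenps, of the histone fold complex with CENP-T, CENP-W and CENP-X, had a change of -0.60 ± 0.65 (adjusted p = 0.569 in limma), and Cenpw had one of -0.47 ± 0.63 (adjusted p = 0.587 in limma). For Cenpt, the partner of CENP-W that reaches the outer kinetochore, the change was 0.06 ± 0.34, a gene named after its value was seen as the 1 gene of the 8 that was higher on average. In this list 3 of 8 genes were lower in 4 lymphomas and higher in lymphoma_4936, against 9.87% of all genes tested.

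Genes that load or license CENP-A were also lower on average for 4 of 4 tested, with a median change of -0.24, and 0 passed. The median was -0.43 without lymphoma_4936 and -0.15 without lymphoma_7890. Oip5, whose human counterpart is the Mis18-beta subunit that primes centromeres for CENP-A, had a change of -0.67 ± 0.97 and Mis18a, its partner, of -0.35 ± 0.63 (adjusted p = 0.597 and adjusted p = 0.657 in limma). The histone chaperone gene Rbbp4 had a change of -0.14 ± 0.25 (adjusted p = 0.746 in limma). Of 5 replacement histone genes 5 were lower on average, with a median of -0.36 and 0 passing, and the median was -0.54 without lymphoma_4936 and -0.19 without lymphoma_5783. H2az2 had a change of -0.61 ± 0.46, H3f3b, an H3.3 gene, of -0.78 ± 0.68 and H2ax, the variant phosphorylated at DNA breaks, of -0.36 ± 0.57 (adjusted p = 0.565, adjusted p = 0.565 and adjusted p = 0.638 in limma). In lymphoma_4936 both H3.3 genes were lower, H3f3b by -0.62 and H3f3a, named after its value was seen, by -0.20. In lymphoma_9250, where the Cenpa change was of most size, they were higher, H3f3b by 0.28 and H3f3a by 0.44. In lymphoma_5783, where Cenpa changed by -1.16, H3f3b changed by -1.05 and H3f3a by 0.08. In lymphoma_7890 and lymphoma_1032 H3f3b changed by -0.95 and -1.56, and H3f3a by 0.09 and -1.09.

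In the outer kinetochore network of KNL1, the MIS12 complex and the NDC80 complex, 9 of 10 genes were lower on average, with a median of -0.52 and 0 passing the test. The median was -0.95 without lymphoma_4936 and -0.33 without lymphoma_1032. Knl1, the checkpoint scaffold, had a change of -0.71 ± 0.69, Ndc80, the main microtubule binder, of -0.80 ± 0.84 and Nsl1, of the MIS12 complex, of -0.88 ± 1.25 (adjusted p = 0.565, adjusted p = 0.565 and adjusted p = 0.587 in limma). All 9 of these genes were higher in lymphoma_4936, and so was Zwint, the 1 gene with a positive mean change (0.16 ± 0.41), which was named after its value was seen. Of 9 genes of microtubule coupling and the corona 9 were lower on average (median -0.47), and of 13 genes of the spindle checkpoint and the inner centromere kinases 13 were (median -0.51), with 0 passing in either list. Without lymphoma_4936 these medians were -0.84 for the coupling and corona list and -0.82 for the checkpoint list, which had -0.29 without lymphoma_5783. Kntc1, Spdl1 and Cenpf of the corona had changes of -0.69 ± 0.85, -0.51 ± 0.61 and -0.63 ± 1.01 (adjusted p = 0.577, adjusted p = 0.577 and adjusted p = 0.616 in limma). The checkpoint gene Bub1b had a change of -0.57 ± 0.68, the cohesin protector gene Sgo1 of -0.57 ± 0.71 and the kinase gene Ttk of -0.68 ± 0.88 (adjusted p = 0.577, adjusted p = 0.577 and adjusted p = 0.577 in limma). All 22 genes of both lists were lower in 4 lymphomas and higher in lymphoma_4936, against 9.87% of all genes tested. For Mad1l1 the change in lymphoma_1032 was near 0, at -0.0016.

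Markers of proliferation had median changes of the same sign as the median of the 10 centromere genes in each lymphoma. Of 11 tested 11 were lower on average, 0 passed, and the median change was -0.27, with -0.59 without lymphoma_4936 and -0.15 without lymphoma_7890. By lymphoma the median was -0.81, -0.76, -0.52, -0.45 and 0.65, and in lymphoma_4936 Cenpa changed by -0.43. Mki67, the Ki-67 gene, had a change of -0.85 ± 0.84 (adjusted p = 0.565 in limma), and changed by 0.34 in lymphoma_4936. Its signal was 9.50 ± 0.65 in ADR cells and 10.36 ± 0.50 in untreated cells. The S and G2 phase genes Top2a and Ccna2 had changes of -0.66 ± 0.84 and -0.61 ± 0.82 (adjusted p = 0.577 and adjusted p = 0.579 in limma). Cdkn1a, the gene of the CDK inhibitor p21, had a change of 0.60 ± 0.43 and was higher in all 5 lymphomas, with 0.49 in lymphoma_4936 (adjusted p = 0.565 in limma). The part of proliferation in the centromere values was not tested.

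**Figure D5:**
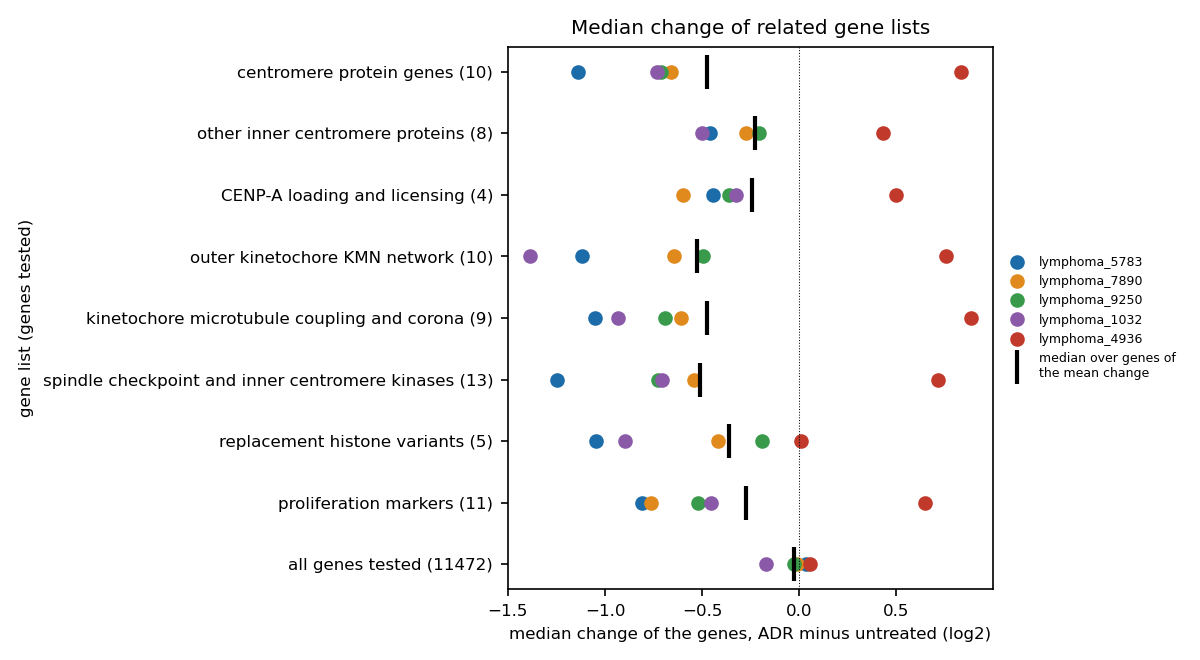
Median change (ADR minus untreated, log2, x axis) of the 10 centromere protein genes, of 7 lists of related genes and of all genes tested (rows, number of genes in brackets), by lymphoma (coloured points), with the median over genes of the mean change over lymphomas as a black bar. In the row of the 10 genes the points of 4 lymphomas lie between -1.14 and -0.66 and that of lymphoma_4936 at 0.84, and among the lists the replacement histones have the point of lymphoma_4936 nearest 0, at 0.01.

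Profiles over the 10 arrays, each centred on its own mean, set Cenpa apart from the other 9 genes. The root mean square difference from Cenpa was between 0.58 (Cenpu) and 1.03 (Cenpp) for those 9, against a median of 0.77 over all genes outside the list. Nearest to Cenpa among those genes were Dennd4a (0.30), Gk5 (0.34), Rab3ip (0.34), Smc5 (0.34) and Phlpp1 (0.36), with the difference from Cenpa on the log2 scale in brackets. Nearest to the mean profile of all 10 genes were Kif20b (0.09), Kif22 (0.10), Ncaph (0.11), Ncapd2 (0.13) and Mad2l1 (0.13), against a median of 0.54. From that mean profile Cenpn (0.15) and Cenph (0.16) differed least and Cenpa (0.67) most among the 10. The 10 arrays are 5 pairs that share lymphomas, so these differences are descriptions.

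All 7 B-cell markers with a probe set passed the filter, which asks for 5 of 10 arrays. On their lowest arrays Cd79b had a signal of 9.93, Cd22 of 8.41, Cd79a of 7.98, Ebf1 of 6.56, Ms4a1 of 4.79 and Blk of 4.51, and Pax5, with 4.23, lay under the filter value there. Their mean signal lay between 6.66 and 9.22 in ADR cells and between 7.45 and 9.42 in untreated cells, and it changed by -0.20, 0.31, 0.50, -0.79 and -0.32 in the order of lymphomas above. For macrophage markers, 8 of 12 of which passed, the mean signal lay between 5.07 and 8.75 in ADR cells and between 4.90 and 8.77 in untreated cells, with a change of 0.60 in lymphoma_1032 and between -0.20 and 0.17 in the others. List means take every marker with a probe set, also those that did not pass. On their lowest arrays Mpeg1 had a signal of 7.43, Lyz2 of 6.81, Cd68 of 6.30, Cd14 of 5.50 and Csf1r of 5.16. The remaining macrophage markers lay under the filter value on their lowest arrays. Fibroblast markers, 6 of 11 of which passed, lay between 4.86 and 6.82 in ADR cells and between 4.83 and 6.65 in untreated cells, and changed by 0.03 to 0.18. T-cell markers (4 of 6 passing) changed by -0.32 to 0.24 and neutrophil markers (3 of 8 passing) by -0.11 to 1.07. In lymphoma_1032, where all 10 centromere genes were lower, the B-cell list had its lowest change and the macrophage, fibroblast and neutrophil lists their highest. The fibroblast change there was 0.18, against 0.17 in lymphoma_5783. All 10 genes were also lower in lymphoma_5783, lymphoma_7890 and lymphoma_9250. In those the B-cell list changed by -0.20, 0.31 and 0.50, and the macrophage list by 0.03, -0.02 and -0.20. In lymphoma_4936, where 9 of 10 centromere genes were higher, the B-cell list changed by -0.32 and the fibroblast list by 0.13. The part of other cells in the centromere values was not tested.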

How the data were processed

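The deposited table holds log2 signals per probe set on 10 arrays, made by the authors using Partek and RMA (credited to the submitters' processing notes). Neither their versions nor the log base is stated there; log2 was read from the range of the values. No further normalization was applied. Of 45101 probe sets 34945 had a single gene in the platform annotation, 932 had several, 9160 were unnamed and 64 were controls; 34741 had a gene ID in RefSeq. Each gene was read from 1 probe set, that of the highest mean, and genes above 4.43 on at least 5 of 10 arrays were tested.

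The fit used lmFit and eBayes of limma 3.58.1 (R 4.3.3) with the lymphoma as a block, two-sided, adjusted by Benjamini-Hochberg over 11472 genes at a threshold of 0.05, and the fit was tested on simulated data. Samples are matched pairs per the labels, and deviations from the group means correlated across genes at 0.51 to 0.79 within each of 5 pairs. No label says that samples beyond the lymphoma were separate cultures. The p-values therefore set the mean change against the spread of the changes between lymphomas, and the block removes differences in level. The eBayes step draws that spread toward a value shared by all genes tested. The p-values thus do not follow from the printed SDs alone. The number of arrays limits the precision. The genes described and all lists were chosen with earlier results of these data known. Named were the 10 genes, of each list up to 3 genes with the smallest p, Mki67, Top2a, Cdkn1a and the 5 nearest profiles to Cenpa and to the mean profile. Python 3.11.15, pandas 2.3.3 and matplotlib 3.10.9 were used. Alternatives were no block, no or a stricter filter, the mean of all probe sets, another quantile normalization, array centring, a trended and robust prior and leaving out each lymphoma.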

Additional observations from a re-analysis of the deposited data

Results flagged for a closer look

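Among 37 groups of 5 values looked at (the signals of each of the 10 genes in each condition, their changes and the median changes of 7 lists), 9 had an end value far from the rest, meaning a gap to the nearest value above 0.71 of the whole range. Chance flags about 1 group in 20, and the groups share arrays. All 9 end values belonged to lymphoma_4936. The untreated Cenpa signal of 10.76 was the highest, and the untreated Cenpk signal of 6.72 the lowest, of the 5 lymphomas. The changes of Cenph (0.57), Cenpi (1.30), Cenpk (0.84) and Cenpu (0.83) there were the highest of the 5. The same held for the median changes of the CENP-A loading list (0.50), the microtubule coupling and corona list (0.88) and the proliferation markers (0.65). No explanation was tested.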

How the results depend on the processing

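In limma 0 genes were called with the pairing and 0 with no replicate block, and 0 in each other setting run, where the fit used had 518 lower and 455 higher genes at an unadjusted p below 0.05. Of 100 alternative values of the 10 gene changes all 100 were negative and 0 moved by more than the SD between lymphomas. For these genes much of that count was fixed in advance. A filter does not alter the change of a gene that passes it, and averaging does not alter genes with a single probe set. Leaving out 1 of 5 lymphomas cannot move a mean by more than the SD. Of 70 alternative list medians 0 moved by more than their SD. Leaving out 1 lymphoma still moved the changes of Cenph, Cenpi, Cenpk, Cenpl, Cenpn, Cenpp and Cenpu and all 7 list medians by over 1.5 times, with the values given beside those results. The change of Cenpu was -0.49 when its probe sets were averaged. The median of the other inner centromere list was -0.15 after centring. The median change of the 10 genes was -0.48 with the mean of all probe sets, -0.45 after another quantile normalization, -0.40 after centring, and between -0.84 (without lymphoma_4936) and -0.34 (without lymphoma_5783) when a lymphoma was left out. The number of the 10 genes lower in every lymphoma used was 10 without lymphoma_4936 and 1 in each other omission. The share of tested genes lower in every lymphoma was 2.33% after centring, against 4.82%, and with 4 lymphomas it was between 6.25% and 14.7%, where 4 signs in place of 5 had to match. The 5 pairs limit the precision, and all 10 genes passed the stricter filter on signal too.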

Other observations

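The 4 probe sets of the 10 genes that lay under the filter are described here for completeness. A Cenpa probe set with signals of 1.86 to 4.22 in ADR cells and 2.06 to 4.78 in untreated cells had its highest signals in lymphoma_4936 in both conditions. Unlike the other 2 Cenpa probe sets, it was lower with ADR in only 4 lymphomas and changed by 0.69 in lymphoma_7890. Its mean change was -0.12 ± 0.49. A Cenpk probe set with signals of 2.92 to 3.41 in ADR cells and 3.26 to 3.75 in untreated cells was lower with ADR in all 5 lymphomas, including lymphoma_4936 (-0.15), where the other 2 Cenpk probe sets changed by 0.84 and 0.08. The remaining Cenpp probe set had the sign of the one used in 3 of 5 lymphomas.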
